A study of Mus musculus with 2 samples.

Results

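The cytosolic ribosomal protein genes encode the proteins of the small and large subunits of the ribosome that translates nuclear-encoded mRNA. They were taken here as genes with a probe accession under the symbol Rpsa, Rplp0, Rplp1 or Rplp2, or Rps or Rpl with a number and at most an a or x after it. This leaves out paralogs such as Rps4l and fusion genes such as Fau. Of 76 such symbols in the RefSeq gene table, 75 had a probe, out of 23786 genes with a probe in all. The 75 genes comprised 29 of the small subunit and 46 of the large subunit. A gene's value is that of its probe with the highest mean signal.

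The RNA came from bone marrow-derived dendritic cells, antigen-presenting cells grown from marrow precursors, of C57BL/6J mice. 1 array was read for cells labelled Egr1-deficient and 1 for cells labelled WT. Both cultures were grown from femoral marrow with 10 ng/ml GM-CSF, a myeloid growth factor, collected on day 6 and labelled male. The sources used here give neither how the Egr1 allele was made nor how many mice stood behind each culture. With 1 array per group no difference has a replicate check, no p-value was computed, and every fold is a comparison of 2 arrays. The errors given below are technical, and the arrays are called by their labels.

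Readings of a few genes went against the labels. Egr1, the zinc-finger transcription factor named as deficient, read 1212 labelled EGR1-deficient against 379.7 labelled WT, a log2 difference of 1.61 (EGR1-deficient minus WT, as in all differences below). It was measured by 1 probe, whose place relative to the altered part of the gene is not known here, so it does not settle the label. Xist, an RNA made in female cells, read 4559 labelled EGR1-deficient against 3425 labelled WT, an unusual level for samples labelled male. Of 4 Y-linked genes, Ddx3y, Kdm5d and Uty were below the scanner program's limit for well above background on each array, and Eif2s3y passed it on both at a dim 27.1 labelled EGR1-deficient against 25.6 labelled WT. Each direction below therefore rests on the labels as given. The cell type label was set beside marker genes: all 11 dendritic cell markers, Itgax, Cd74 and Zbtb46 among them, were well above background on both arrays, but so were all 10 macrophage, 5 monocyte and 8 neutrophil markers, so these markers do not single out dendritic cells.

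Most ribosomal proteins are made in equal numbers for each particle. The mRNAs of ribosomal proteins belong to a class that starts with a C and a run of pyrimidines, the terminal oligopyrimidine tract. Through this tract growth signals acting over mTOR and the RNA-binding protein LARP1 set the translation of the whole class together, without a need for more mRNA. In dendritic cells, protein synthesis capacity is adjusted as the cells mature and take up the making of cytokines and antigen-presenting molecules. Array signal reports mRNA amount only, and in RNA from a whole culture fewer cells of one type and less RNA per cell cannot be told apart. Mammalian genomes also hold many near-identical processed copies of these genes. The files give no probe sequences, so how much of a signal comes from such copies is uncertain for every member.

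Some of the annotated start sites carry the feature the class is named for. RefSeq start-site windows (build GRCm38.p6, 250 bases before to 50 after the start) were available for 56 member genes. A start made of C followed by 4 bases that are each C or T was annotated for 13 of these 56 (23.2%), against 3.01% of 27025 genes with a window. A run of 5 or more pyrimidines that holds a C and begins within 10 bases of the start was present in 35 of 56, against 41.5% of all. The following windows run 5′ to 3′ from 40 bases before to 12 bases after the annotated start, and capitals mark that run. The first 6 show the tract itself. Of these genes, Rps10 differed between the arrays by −0.22 and Rpl14 by −0.18, and the others are described below.
Rps6, chr4:86857356-86857407, minus strand: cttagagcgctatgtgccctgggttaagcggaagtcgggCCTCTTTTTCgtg
Rps10, chr17:27635233-27635284, minus strand: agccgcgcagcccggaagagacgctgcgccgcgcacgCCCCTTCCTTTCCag
Rps27, chr3:90213637-90213688, minus strand: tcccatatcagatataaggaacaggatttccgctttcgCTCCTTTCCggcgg
Rpl14, chr9:120571477-120571528, plus strand: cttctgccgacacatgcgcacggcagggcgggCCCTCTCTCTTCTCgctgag
Rpl15, chr14:18270975-18271026, minus strand: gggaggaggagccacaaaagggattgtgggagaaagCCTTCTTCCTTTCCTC
Rpl38, chr11:114668540-114668591, plus strand: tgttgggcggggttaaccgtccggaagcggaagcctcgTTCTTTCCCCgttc
The next 4 are those members of the 56, among the ones with 1 annotated start, that lay nearest to 0 (Rplp0, Rplp2) and furthest below it (Rpl24, Rpl26) in the array comparison. Rplp2 holds a run of 10 pyrimidines over its start, and no such run was found near the annotated starts of the other 3.
Rplp0, chr5:115559427-115559478, plus strand: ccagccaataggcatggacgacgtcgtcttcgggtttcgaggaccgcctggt
Rplp2, chr7:141447611-141447662, plus strand: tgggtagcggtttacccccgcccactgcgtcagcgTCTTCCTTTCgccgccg
Rpl24, chr16:55966235-55966286, plus strand: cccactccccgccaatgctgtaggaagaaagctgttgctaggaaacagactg
Rpl26, chr11:68901526-68901577, plus strand: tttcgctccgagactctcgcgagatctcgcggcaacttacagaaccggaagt
Members that start with the C and 4 pyrimidines differed between the arrays by a median of −0.14 (13 genes) and the others above background by −0.17 (42 genes), with ranges that overlapped. The letters GCGNGGGCG, a sequence bound by EGR proteins, were found on either strand of 7 of 56 member windows (12.5%). Over all genes with a window the share was 6.27%, and over those above background on both arrays 10.5%. The members with these letters were Rpl7a, Rpl12, Rpl27a, Rps13, Rps15a, Rps24 and Rps2, whose differences ran from −0.24 to −0.15, inside the range of the others. A match is a description of the letters and not a binding site.

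Ribosomal protein mRNAs gave slightly lower signals on the array labelled EGR1-deficient, within a narrow range. After each array was scaled to its 75th percentile, all 74 of the 74 members well above background on both arrays had a log2 difference below 0, where 57.4% of all 13725 such genes did. The median difference was −0.17, a signal 11.1% lower, against −0.052 over all genes. Members ran from −0.36 to −0.015, and none of the 74 was 1.5-fold apart, beside 7.69% of all genes, or 2-fold apart, beside 1.71%. Among other genes of like signal, defined below, only 0.59% were 1.5-fold apart, so the count of 0 was near that share. Their interquartile range was 0.11 log2 units, against 0.38 over all genes, but 35 of the 74 values are averages over 7 or more spots. The remaining member, Rpl37, a large subunit protein, read 3.51 labelled EGR1-deficient against 3.57 labelled WT with its single probe, below the background limit of both, so it has no fold.

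The size of this group difference depended on what the members were set against. Ribosomal protein probes are bright: their signals ran from 1559 to 55928 for EGR1-deficient and from 1671 to 58177 for WT. Bright genes of other kinds also lay below 0. Over 1009 other genes of like signal, between 2497 and 40518 and weighted to the members' distribution, the median difference was −0.078 and 64.7% were below 0. The members' median minus that of genes of like signal was thus −0.093, and 67 of 74 members lay under that median of −0.078. Of the genes of like signal, 29.8% had a difference lower than the members' median and 57.9% fell inside the members' whole range. The interquartile range of the genes of like signal was 0.26 log2 units.

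Scaling changed how far the members' median stood below 0 and how many members did so, and moved the median of genes of like signal across 0. Before any scaling, 68 of 74 members had the lower signal on the array labelled EGR1-deficient and 6 the higher one. After cyclic loess, which removes differences that follow signal, the members' median was −0.033 with 49 below 0, and genes of like signal had a median of 0.062. With quantile normalization these medians were −0.066 and 0.037, with 62 members below 0. The authors' deposited series table, used on its own scale, moved all genes up by 0.12 and put the members at −0.055 and genes of like signal at 0.037. The gap between members and genes of like signal stayed between −0.10 and −0.086 over these settings and the others in the plot of medians by processing choice. The authors' table, the median of all genes set to 0 and the filter on bright genes could not change this gap. Each shifted all genes alike or kept all the genes compared.

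**Figure D1:**
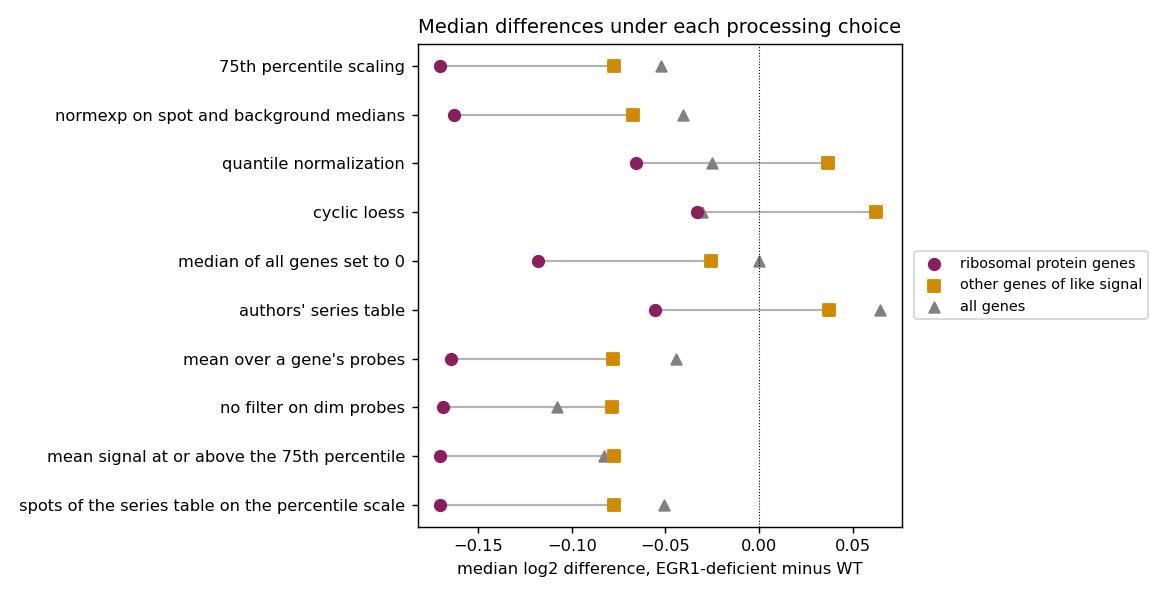
Median log2 difference (x axis, EGR1-deficient minus WT) under each processing choice (rows), for the ribosomal protein genes (circles), other genes of like signal (squares) and all genes (triangles). The circles lie left of the squares in every row, with differences of −0.10 to −0.086, and the squares cross 0 under some scalings while the circles stay below it.

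Across signal steps the distance was widest in the brightest step that held members, and it did not grow evenly. Between signals of 2048 and 4096, 10 members had a median of −0.24 and 605 other genes −0.12. From there to 8192, 12 members had −0.20 and 310 other genes −0.12. Between signals of 8192 and 16384, 30 members had a median of −0.17 and 176 other genes −0.078. In the next step up, to 32768, 15 members had −0.17 and 97 other genes −0.045. The last step, to 65536, held only 5 members, at −0.16, and 69 other genes at 0.065. The other genes thus moved above 0 in the brightest step. The members' medians rose as well, from −0.24 in the step from 2048 to −0.16, and stayed below 0. Below that step, between 1024 and 2048, only 2 members lay, at −0.16, and 1015 other genes at −0.11, so the rise did not hold over all steps.

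**Figure D2:**
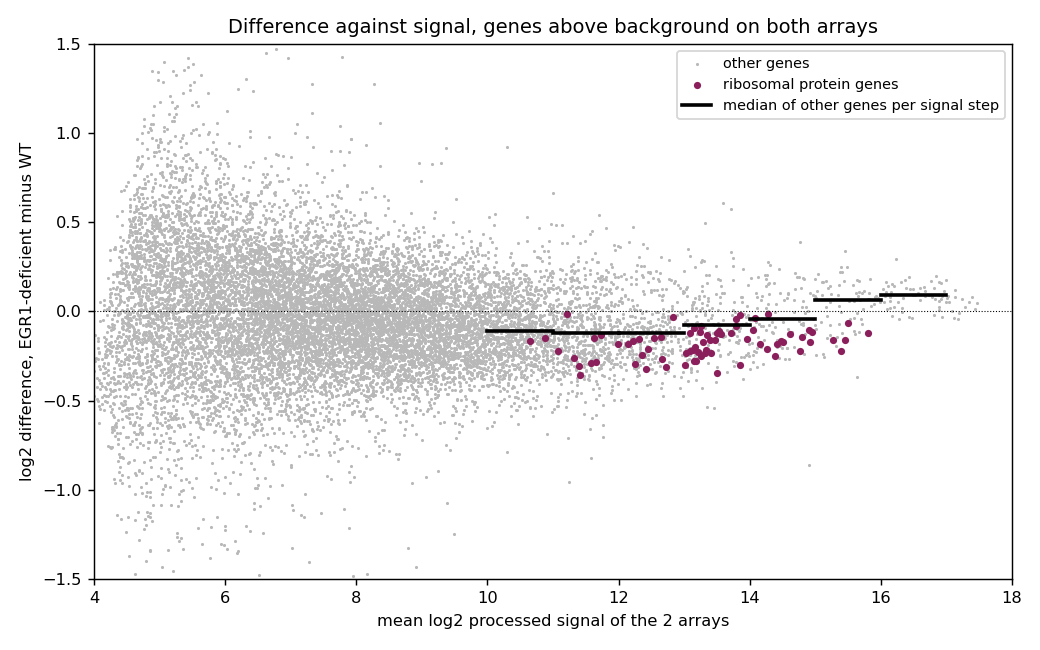
Log2 difference (y axis, EGR1-deficient minus WT) against the mean log2 signal of both arrays (x axis) for genes above background on both, with ribosomal protein genes in colour, other genes in grey and the median of other genes per signal step as black lines. The ribosomal protein genes, from −0.36 to −0.015, lie mostly under the black lines, and 86 grey points beyond 1.5 log2 units fall outside the y axis.

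Repeated spots gave the technical error of single members. The array prints some probes about 10 times, and 35 members were represented by a probe with 7 to 10 usable spots. For Rpl22, a large subunit protein needed for αβ T cell development in mice, 10 spots read from 2327 to 2662 (median 2415) for the array labelled EGR1-deficient, against 2769 to 3398 (median 3002) for WT. The spots did not overlap, and the difference was −0.36 ± 0.034 (SE over 10 spots per array, technical). Rplp1, one of the acidic proteins of the ribosomal stalk, read from 6893 to 7775 for the array labelled EGR1-deficient and from 6849 to 7545 for WT. Its spots overlapped almost wholly, with a difference of −0.033 ± 0.023. Over the 35 members the SE ran from 0.011 to 0.036, so the range between members was wider than spot error.

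A separation of this kind was common among probes printed many times. After scaling, the spots of 21 of the 35 members were all lower on the array labelled EGR1-deficient, and the same held for 54.8% of all 281 probes with 7 or more usable spots. The 223 such probes not named as a member gene had a median difference of −0.18 with 202 below 0. The 58 such probes of members had −0.20. Their quartiles were −0.28 and −0.14, against −0.26 and −0.12 for the 223 others. Of the others, 161 could not be named here, so it is not known how many of them read member genes or their copies. The 62 that could be named belonged to 59 genes, among them the elongation factor genes Eef1a1 and Eef1g and the ribosomal protein pseudogene Rpl31-ps12. These 62 had a median of −0.16, quartiles of −0.25 and −0.051, and 49 below 0. A low position was therefore not particular to the members among the named probes, though the 62 others spread more widely. For the 161 unnamed probes this cannot be told. Members with fewer than 7 spots (39 genes) had a median of −0.17, and −0.096 relative to genes of like signal printed as few times.

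**Figure D3:**
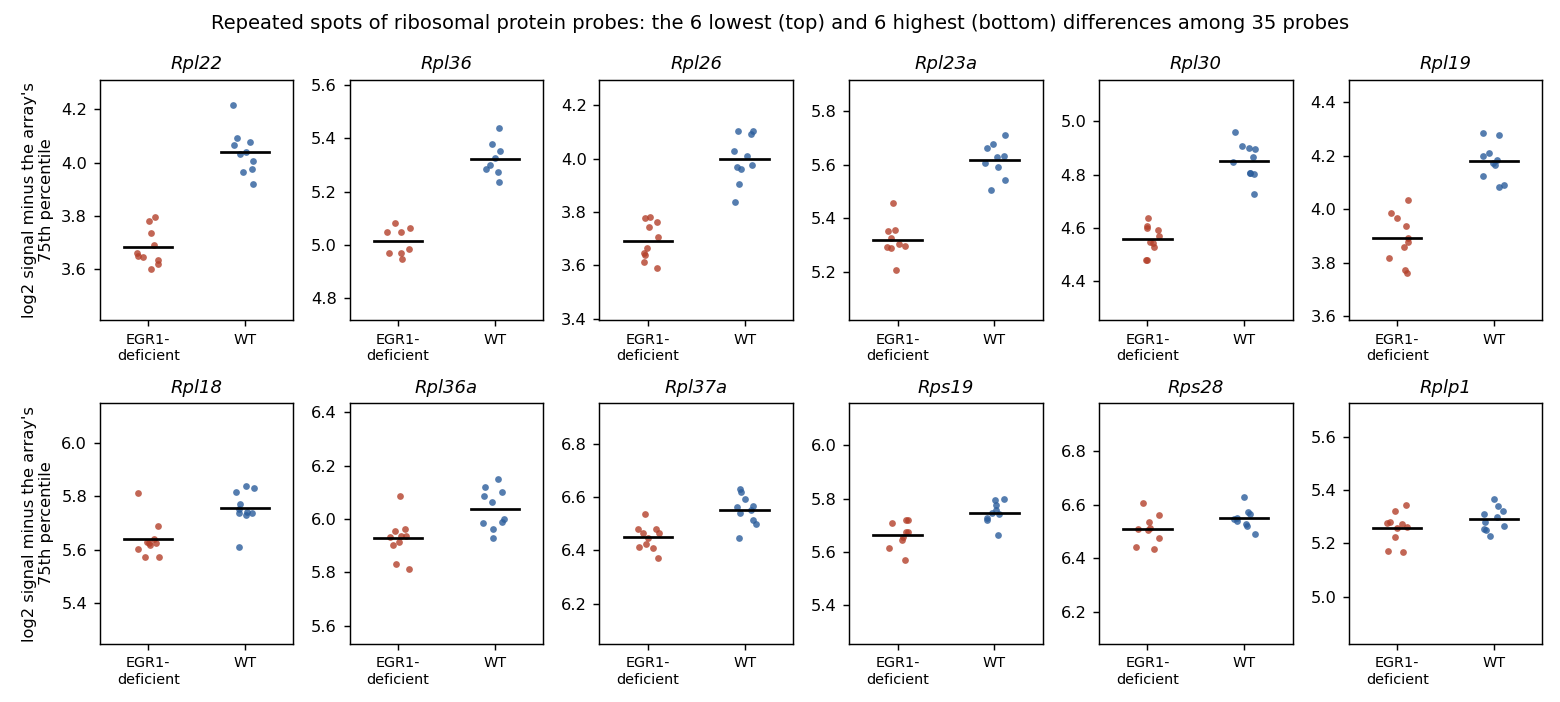
Scaled log2 signal (y axis) of each repeated spot on the array labelled EGR1-deficient (left in each panel) and the WT array (right), with the mean as a line, for the 6 lowest (top row) and 6 highest (bottom row) differences among 35 members with 7 or more spots; each y axis spans 0.9 log2 units. In the top row, from Rpl22 at −0.36 to Rpl19 at −0.29, the spots of both arrays are apart, and in the bottom row they overlap.

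The lowest members were mostly of the large subunit and came from several sites on the ribosome. Among the 6 lowest only Rps26 was of the small subunit, and it rests on 1 spot of 1 probe. Rpl29, a large subunit protein, read 10534 labelled EGR1-deficient against 12772 labelled WT (−0.34). Rpl24, which forms a bridge between the subunits, read 5021 labelled EGR1-deficient against 6010.4 labelled WT (−0.33). Rpl36 read 6190.5 labelled EGR1-deficient against 7327 labelled WT (−0.31 ± 0.029, SE over 8 spots). Each of these differences from 0 was larger in size than the median error of 1 spot, 0.085. Each was also larger than the median SD between probes of genes with 2 probes, 0.17. These members were picked for being lowest, so this does not show that they stand apart from the members' median of −0.17. Rpl26, near the mouth of the exit tunnel, read 2477 labelled EGR1-deficient against 2924 labelled WT (−0.31), and Rps26, which lines the exit of the mRNA from the small subunit, 13667 labelled EGR1-deficient against 16057 labelled WT (−0.30).

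The stalk of the large subunit, which recruits and stimulates the GTPases of translation, stood nearest to 0 at this scaling. Rplp0, the protein that anchors the stalk, read 2417 labelled EGR1-deficient against 2333 labelled WT, a difference of −0.015. Rplp2 read 20234 labelled EGR1-deficient against 19552 labelled WT (−0.017), and Rplp1 7333 labelled EGR1-deficient against 7163 labelled WT (−0.033). These 3 signals were the higher ones on the array labelled EGR1-deficient before scaling and just under WT after it. Their median lay 0.16 above that of the other 71 members, and between 0.13 and 0.17 above it over all settings. Settings that shift all genes alike could not change this distance. They did not stay together under each: Rplp2, which ranked 2 from the highest here, ranked 22 under quantile normalization, and Rplp0 ranked 1 here and 7 after cyclic loess. Rpl12, which binds the rRNA at the base of the stalk, differed by −0.22, inside the main body of members. The stalk genes were pointed to after their values were seen, and Rplp0 and Rplp2 rest on 1 probe each. A second probe of Rplp1 lay further from 0, at −0.096 (6397 labelled EGR1-deficient against 6530 labelled WT). The other members near 0 were Rpl27 (−0.018), Rps28 (−0.039 ± 0.023) and Rps21 (−0.044), whose signals of 14349 labelled EGR1-deficient against 14129 labelled WT were also higher before scaling.

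**Figure D4:**
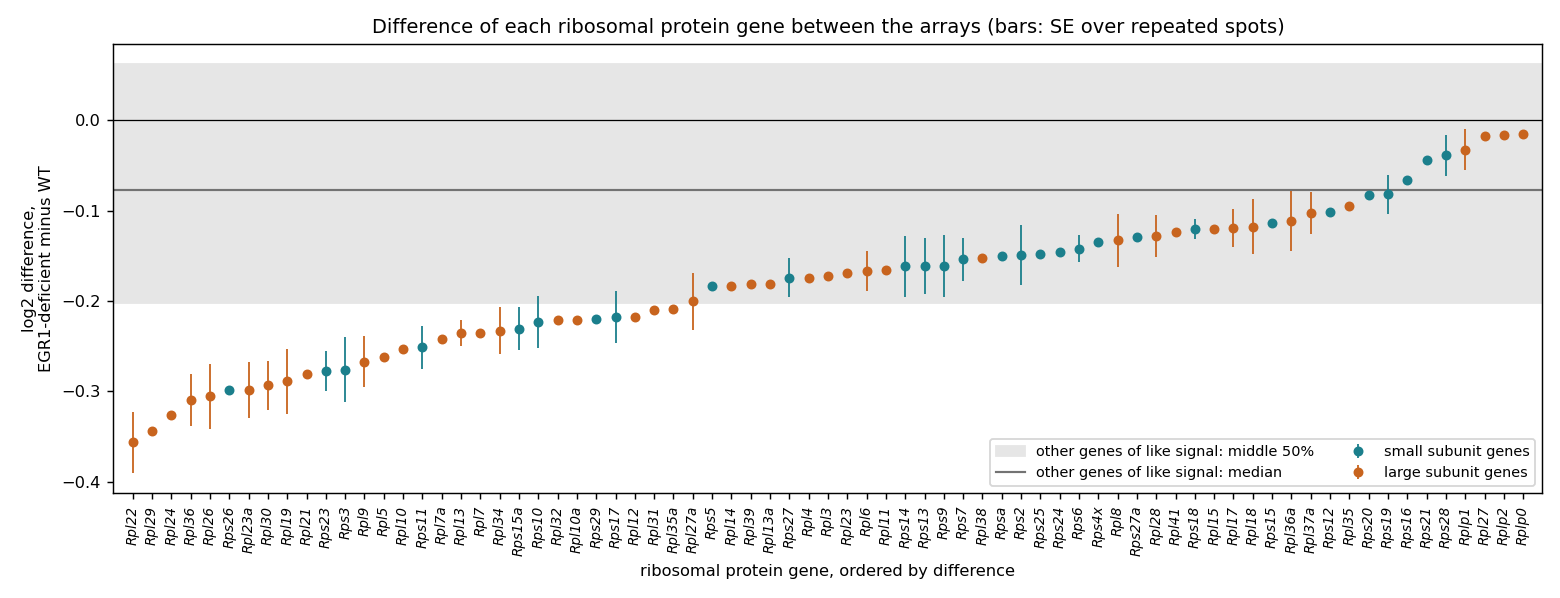
Log2 difference (y axis, EGR1-deficient minus WT) of each of 73 ribosomal protein genes (x axis, in order), with small and large subunit genes in separate colours. Bars are the technical SE over repeated spots where a probe had 7 or more; the grey line and band are the median and interquartile range of other genes of like signal. All points lie below 0 and 66 lie below the grey line, from Rpl22 at −0.36 to Rplp0 at −0.015.

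The 29 small subunit genes had a median difference of −0.15 with a range from −0.30 to −0.039. The 45 large subunit genes above background had −0.18, from −0.36 to −0.015. The small minus large difference of medians was 0.034, with 0.013 at the lowest, under quantile normalization, and 0.040 at the highest, after cyclic loess. The small subunit range lay inside the large subunit one.

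Around the catalytic centre of the large subunit and its tRNA sites the differences were −0.17 for Rpl3 (9619 labelled EGR1-deficient against 10351 labelled WT), −0.13 for Rpl8, −0.25 for Rpl10 (20021 labelled EGR1-deficient against 22782 labelled WT) and −0.11 for Rpl36a. Rpl3 has 2 further probes, of which the higher one read 0.064, so its sign depends on the probe. Rpl5 and Rpl11 bind the 5S rRNA and, when ribosome assembly is disturbed, bind and inhibit the p53 ligase MDM2. Rpl5 read 2397 labelled EGR1-deficient against 2746 labelled WT (−0.26) and Rpl11 1559 labelled EGR1-deficient against 1671 labelled WT (−0.17), each with 1 probe and both below 0. The 8 genes of the exit tunnel and its rim, where the new chain leaves the ribosome, had a median of −0.20. They ran from Rpl26 to Rpl35 (−0.095). Rpl39, in the tunnel wall, was measured by 5 probes, all below 0, between −0.34 and −0.16.

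On the small subunit the genes along the mRNA path, 8 in number, had a median of −0.16 and a range from −0.30 to −0.039. Rps3, at the entry of the mRNA and also known in human T cells as a partner of NF-κB, read 8665 labelled EGR1-deficient against 10019.8 labelled WT (−0.28 ± 0.036, SE over 9 spots). Rpsa, first known as a laminin receptor precursor, read 5777 labelled EGR1-deficient against 6121 labelled WT (−0.15), and Rps2 1837 labelled EGR1-deficient against 1945 labelled WT (−0.15 ± 0.034). Of these 3, only Rps3 stood clearly below the members' median of −0.17. The 7 genes of the decoding centre and head had a median of −0.12, from Rps23, a decoding centre protein (−0.28), to Rps19 (−0.082 ± 0.022). Rps6, the small subunit protein phosphorylated by S6 kinase downstream of mTOR, read 6239.5 labelled EGR1-deficient against 6576 labelled WT (−0.14 ± 0.015, SE over 10 spots).

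Members known for further roles lay inside the group. Rpl13a, released from the ribosome in interferon-γ-treated human monocytic cells to repress inflammatory mRNAs, read 3924 labelled EGR1-deficient against 4249.5 labelled WT (−0.18). Rpl38, needed for the translation of Hox mRNAs in mouse embryos, read 15377 labelled EGR1-deficient against 16323 labelled WT (−0.15). The X-linked Rps4x read 3311 labelled EGR1-deficient against 3472 labelled WT (−0.14), Rps27 22349.7 labelled EGR1-deficient against 24087 labelled WT (−0.17) and Rpl7 10214 labelled EGR1-deficient against 11480.2 labelled WT (−0.24). All but Rpl7 lay inside the members' interquartile range, from −0.23 to −0.12. The 17 members whose human counterparts are mutated in Diamond-Blackfan anaemia, a failure of red cell production, had a median of −0.17, from −0.31 to −0.018. That is close to the median of all members.

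The brightest member probes, which do not rank the genes because probes differ in response, lay inside the range of the group. Rpl41, the smallest ribosomal protein, read 55928 labelled EGR1-deficient against 58177 labelled WT (−0.12) and Rps16 46121 labelled EGR1-deficient against 46124 labelled WT (−0.067). Rps29 read 40545 labelled EGR1-deficient against 45109.8 labelled WT (−0.22). Besides Rpl11, Rps2 and Rplp0, the dimmest was Rpl32, at 2054 labelled EGR1-deficient against 2288 labelled WT (−0.22). Differences of these brightest and dimmest members were thus of like size. Over the 74 members, which share both arrays, difference and mean log2 signal correlated with r = 0.29, the dimmer members tending to lie lower.

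Other probes of the same genes gave the same direction in most cases. The members had 139 probes, 136 of them above background on both arrays, of which 131 were below 0 and 5 above. In 69 of 74 members every such probe was below 0, although 31 had only 1. Among the 43 members with several, the median distance between the outermost probes was 0.079. The widest was Rpl10a, where the representative probe read 8229.9 labelled EGR1-deficient against 9162 labelled WT (−0.22) and a dim one 211 labelled EGR1-deficient against 136 labelled WT (0.57). Rpl15 (−0.43 and −0.12) and Rpl6 (−0.47 to −0.17) kept their sign, while Rpl7a (−0.24 and 0.056) and Rps20 (−0.24 to 0.047) had probes on both sides of 0. Rps15a was the fifth member with a probe above 0 (0.022).

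Ribosomal protein genes that the naming rule leaves out spread more widely. Rps3a1, a small subunit gene, read 7542 labelled EGR1-deficient against 8535 labelled WT (−0.24). Fau, which encodes a ubiquitin-like fusion to a small subunit protein, read 67080.5 labelled EGR1-deficient against 60736 labelled WT (0.077). Fau was thus on the other side of 0 from every member at this scaling. Of the paralogs, Rps4l read 139 labelled EGR1-deficient against 185 labelled WT (−0.48), Rpl36al 4405 labelled EGR1-deficient against 5559 labelled WT (−0.40, another probe −0.17) and Rps27l 979 labelled EGR1-deficient against 1028 labelled WT (−0.14). Rpl22l1, the paralog whose level RPL22 represses in mice, read 295 labelled EGR1-deficient against 264 labelled WT with 1 probe. Its difference of 0.096 was near the median error of 1 spot, 0.085. Rpl7l1 read 156 labelled EGR1-deficient against 135 labelled WT (0.15). Rpl22 was the lowest of all members, and a link between Rpl22 and Rpl22l1 was not tested. Rpl3l, Rpl10l and Rpl39l, known from muscle and testis, did not reach the background limit. Over the 8 measured genes of this list, 5 were below 0 and the median was −0.082, against −0.086 for genes of like signal.

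Genes of other parts of the translation system also lay below 0 in the median, but genes of like signal did so too. Of all genes, 57.4% were below 0. These lists had a wider spread than the members, though growth signalling, with an interquartile range of 0.12, only slightly. At other scalings the medians of the elongation and termination factors and of the hosts of small nucleolar RNAs came to lie above 0, as did that of the paralogs and fusion genes. For the elongation and termination factors this was so only with the authors' deposited table, which left 9 of the 10 genes. The ribosomal proteins of the mitochondrion, which form a separate ribosome for mitochondrial mRNAs, had a median of −0.20 with 60 of 77 below 0. Their median minus that of genes of like signal was −0.13, a larger distance than the −0.093 of the cytosolic genes, and the difference between these distances was not tested. They ran from Mrps31 (286 labelled EGR1-deficient against 419.6 labelled WT, −0.62) to Mrpl28 (60.6 labelled EGR1-deficient against 22.7 labelled WT, 1.35), this value resting on a dim reading and 1 probe. In this list 3 genes were 1.5-fold lower and 1 was 1.5-fold higher, beside 4.17% and 3.51% of all genes. Their interquartile range was 0.25, wider than that of the cytosolic genes.

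Initiation factors, which bring the mRNA and the first tRNA to the small subunit, had a median of −0.15 with 31 of 37 below 0. Eif2s1, the initiation factor subunit whose phosphorylation stops translation under stress, was lowest at 260.2 labelled EGR1-deficient against 398 labelled WT (−0.68), and Eif2b5 was highest (0.25). Elongation and termination factors had a median of −0.14 with 8 of 10 below 0, from Eef1e1 (57.3 labelled EGR1-deficient against 84.9 labelled WT, −0.64) to Eef2, the translocation factor (9579 labelled EGR1-deficient against 9037 labelled WT, 0.018). Genes of like signal had medians of −0.10 for the first list and −0.080 for the second. In each list 1 gene was 1.5-fold lower, Eif2s1 of 37 and Eef1e1 of 10, beside 4.17% of all genes.

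The genes that build ribosomes and make rRNA had medians below 0 that moved with the processing. The 50 ribosome biogenesis genes had a median of −0.12, 37 of them below 0, against −0.050 for genes of like signal and −0.0092 for the list with the authors' deposited table. The list ran from Efl1, which releases a late assembly factor (66.2 labelled EGR1-deficient against 97.5 labelled WT, −0.63), to Nop16 (69.4 labelled EGR1-deficient against 46.3 labelled WT, 0.52). RNA polymerase I genes, which transcribe the rRNA, had a median of −0.22 over 10 genes with 7 below 0, from Taf1b (−0.60) to Taf1c (0.46). That median was −0.098 with probes averaged per gene and −0.049 with the authors' deposited table, which left 9 genes of the list. Genes of like signal had −0.050. In this list Polr1e read 205 labelled EGR1-deficient against 4.76 labelled WT and reached the background limit in the cells labelled EGR1-deficient alone, at least 12-fold higher. The bound is taken against the lowest signal well above background on the WT array, 16.3, and the reading is unchecked by a second array. The hosts of small nucleolar RNAs, several of which share the pyrimidine tract, had a median of −0.10 with 8 of 13 below 0, against a median of −0.080 for genes of like signal, and ran from Snhg16 (−0.52) to Snhg9 (0.38). Gas5 read 12719 labelled EGR1-deficient against 13049.5 labelled WT (−0.10).

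The genes that carry growth signals to ribosomes had a median of −0.13 with 14 of 18 below 0, against a median of −0.076 for genes of like signal. Mtor, the kinase at the head of this pathway, was lowest at 40.2 labelled EGR1-deficient against 59.6 labelled WT (−0.63), a dim reading with 1 probe. Larp1, which binds the pyrimidine tract, read 3703 labelled EGR1-deficient against 4012 labelled WT (−0.18), and Rps6kb1, the S6 kinase gene, 241 labelled EGR1-deficient against 266 labelled WT (−0.21). Myc, a transcription factor that drives ribosomal protein genes, was the highest of the list at 318 labelled EGR1-deficient against 243 labelled WT (0.32), with another probe at 0.026. Mdm2, the target of free Rpl5 and Rpl11, read −0.38 and 0.17 in its 2 probes. Apart from Myc, 3 genes of the list were above 0.

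**Figure D5:**
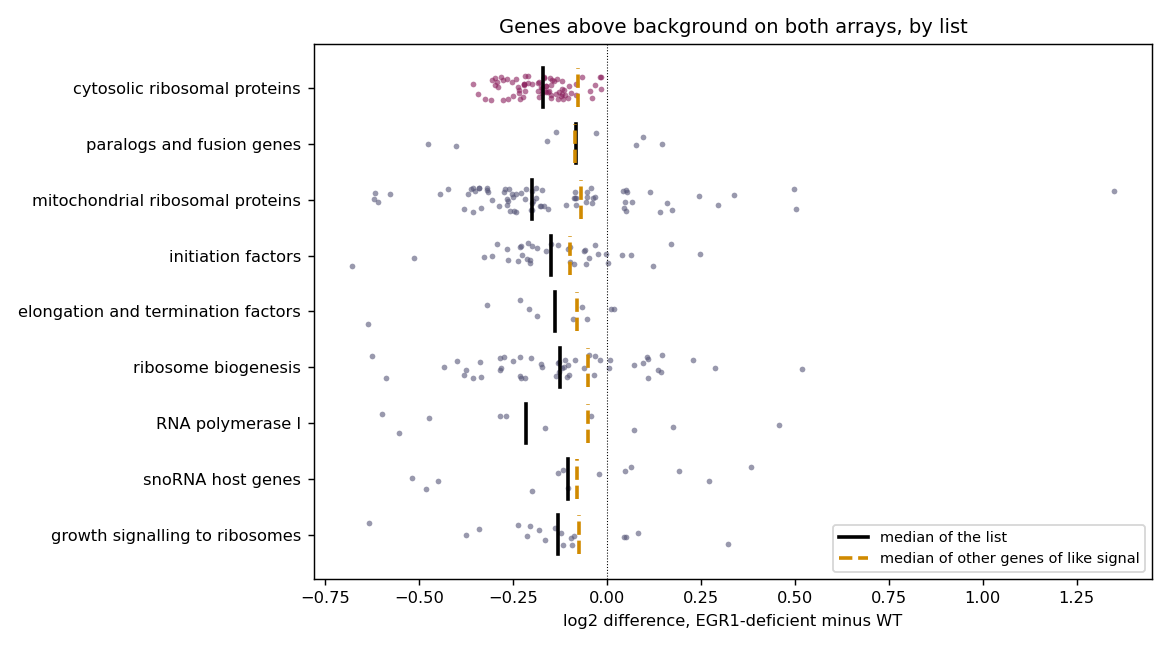
Log2 difference (x axis, EGR1-deficient minus WT) of each gene above background on both arrays, by list (rows), with the list's median as a solid line and that of other genes of like signal as a dashed one. The cytosolic ribosomal protein genes form the narrowest row, around −0.17, and the medians of the 8 other lists lie between −0.22 and −0.082.

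Markers of other cells in the culture also differed between the arrays. All 10 macrophage markers were below 0, with a median of −0.39 and a summed signal of 29019 labelled EGR1-deficient against 38549 labelled WT. Basophil, mast cell and eosinophil markers had 8 of 9 measured below 0 and a median of −0.47, with Fcer1a under the background limit. The summed signal of all 10 was 5865 labelled EGR1-deficient against 7625 labelled WT. Dendritic cell markers had a median of −0.0036 and a summed signal of 51053 labelled EGR1-deficient against 50739 labelled WT. Neutrophil markers had a median of −0.0039 and a summed signal of 62444 labelled EGR1-deficient against 55779 labelled WT. Among the monocyte markers 4 of 5 were below 0, with a median of −0.16. The lists of B cells (5 of 6 markers above background on both arrays), T and NK cells (3 of 6) and erythroid cells (2 of 5) were dim in sum, at most 787 labelled EGR1-deficient and 617 labelled WT, and Ncr1 and Alas2 did not reach the background limit. All 3 measured T and NK markers lay above 0, with a median of 0.37 and a summed signal of 482 labelled EGR1-deficient against 261 labelled WT, on the other side from the macrophage list. B cell markers had 3 of 5 below 0 and erythroid markers 2 of 2, with medians of −0.58 and −0.19. The 3 B cell markers below 0 were dim, at most 42.4 on either array. Brighter Ms4a1 (321 labelled EGR1-deficient against 224 labelled WT) and Pax5 (382 labelled EGR1-deficient against 264 labelled WT) lay above 0. The macrophage and granule-cell lists thus lay on the same side of 0 as the ribosomal protein genes and further from it, and their part in the members' differences was not tested.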

How the data were processed

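RNA was read on 2 one-colour Agilent arrays, 1 labelled EGR1-deficient and 1 WT, at different positions of 1 slide (the slide part of their barcodes is the same) and read in 1 scan, per the file headers. The deposited values are the linear intensities of single spots from the scanner program. Per the file headers they come from Agilent Feature Extraction 12.1.0.3 (11.5.1.1 per the submitters' processing notes), with background subtraction and detrending. The authors' deposited series table of intensities lists 29296 spots per array. It equals their values times 6.18 (labelled EGR1-deficient) and 5.97 (WT), without centring (column medians 1205 and 1114). No source used here says where these constants come from.

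Of 59305 non-control spots, 59.8% (EGR1-deficient) and 55.2% (WT) passed the scanner program's call for signal well above background. None was saturated, and 77 (EGR1-deficient) and 79 (WT) spots marked as outliers were left out. The expression value was the log2 processed signal minus its own array's 75th percentile, which was 192 (EGR1-deficient) and 183 (WT). Log2 values were averaged over a probe's spots, probes were named by accession through RefSeq genes of GRCm38.p6 (34565 of 56603 probes, 23786 genes), and a gene took its probe of highest mean signal. Probes not named here were left out. Genes of like signal are non-members between the 5th and 95th percentile of the members' mean log2 signal, weighted in steps of 0.5.

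Genes named in the text are Egr1, the 6 highest and 6 lowest members, the 4 brightest and 4 dimmest, the 5 whose probes lie furthest apart, 18 members and 8 paralogs or fusion genes chosen for their roles, and the highest and lowest of each related list. Any other named gene was chosen after its values were seen. The members and lists were chosen with earlier results of these data known. A few genes that these rules name are not reported here. The steps were tested on simulated data. Alternatives were normexp, quantile and cyclic loess normalization in limma 3.58.1, other scalings, probe rules and filters. The number of arrays limits the precision.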

Additional observations from a re-analysis of the deposited data

How the results depend on the processing

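The members' median difference of −0.17 moved by more than the median error of 1 spot (0.085) under 3 alternatives, to −0.066 with quantile normalization, −0.033 with cyclic loess and −0.055 with the authors' series table. It stayed within that error with normexp, with the median of all genes set to 0, with probes averaged per gene and with either filter. The number of members below 0 was 49 after cyclic loess. The distance to genes of like signal and the gap between subunits moved by less than that error under every alternative run, although the gap of 0.034 came down to 0.013 with quantile normalization and 0.014 with normexp. With all brighter genes as the comparison the distance was −0.13, and with the 20 nearest genes −0.11. Of the related lists, quantile normalization moved initiation factors to −0.053, elongation and termination factors to −0.037 and host genes of small nucleolar RNAs to −0.014. Cyclic loess moved paralogs and fusion genes to 0.049, elongation and termination factors to −0.023 and the host genes to 0.022. The series table moved paralogs and fusion genes to 0.033, mitochondrial ribosomal proteins to −0.084, initiation factors to −0.035, elongation and termination factors to 0.024, ribosome biogenesis to −0.0092, RNA polymerase I to −0.049, the host genes to 0.012 and growth signalling to −0.016. Averaging probes per gene moved RNA polymerase I to −0.098. The series table differs by 1 constant per array, which shifts every listed gene alike and so cannot change the distance or the gap. It lists 29296 spots per array, which left 76 mitochondrial ribosomal protein genes, 9 elongation and termination factors and 9 RNA polymerase I genes. On the percentile scale these genes had medians of −0.20, −0.091 and −0.16. Part of the moves of the elongation and RNA polymerase I lists thus came with the genes not listed. Otherwise the cause of the moves was not tested. Normexp used spot medians, since the files used hold no mean spot signal. The settings by number of spots, by series table spots on the percentile scale and without Rplp0, Rplp1 and Rplp2 were added after the data were seen. No paired analysis was possible because each group has 1 array.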
